A study of Mus musculus with 45 samples.

Results

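Wild-type (WT) mouse embryonic stem cells (ESCs) were compared with embryoid bodies (EBs) grown from them for 4 days. ESCs are cells of the early embryo's pluripotent lineage held in culture, and EBs are the aggregates they form when they differentiate in suspension, here in hanging drops. The comparison took the 3 arrays of WT EBs of day 4 against the 3 arrays of undifferentiated WT ESCs, 6 of the 45 arrays of the series. It covered the 34945 of 45037 probe sets that the array's annotation pairs with exactly 1 gene symbol, which stand for 18193 genes. The WT cells are labelled wild type, male and of strain 129. Of the other lines used here, the SCR cells are a scrambled control and the KD-labelled cells are described as silenced for Strip2; both are also male and of strain 129, with 3 arrays of ESCs and 3 of day 4 EBs each. WT EBs of days 8, 12 and 16, also 3 arrays each, served for later levels. The labels number the chips of a group and do not say that they come from separate cultures. The p-values measure the spread between arrays within groups, pooled over all 45 arrays of the series, and this spread may be technical.

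Pluripotency is held by a network of transcription factors around Pou5f1 (Oct4), Sox2 and Nanog. In the naive state, the counterpart of the inner cell mass, further factors such as Esrrb, Klf2 and Zfp42 (Rex1) are active, and the signal of leukaemia inhibitory factor (LIF) through Stat3 sustains them. Cells that leave this state pass through a primed, epiblast-like state and, under Nodal, BMP, Wnt and FGF signals, can enter the primitive streak, the site where the embryo forms mesoderm and definitive endoderm. In EBs these steps take place in a mass of cells that need not be in step with each other.

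All values are the deposited log2 signals, on which a difference of 1 is a doubling. Over the 6 arrays they ran from 1.82 to 14.19, with array medians between 5.02 and 5.08, the lowest 5% of values under 2.65 and the highest 5% above 10.32. Arrays within a group correlated closely, with Pearson's r across probe sets, which are not independent replicates, of 0.9897 to 0.9927 in ESCs and 0.9901 to 0.9926 on day 4, whereas ESC and day 4 arrays correlated at 0.9379 to 0.9493. Among the defining markers of ESCs, Pou5f1 read 12.21, 12.14 and 12.49 and Zfp42 12.04, 12.15 and 12.22 in the ESC arrays, all in the highest 5% of values. Strip2, the gene described as silenced in another line of the series, read 2.50, 2.59 and 3.0 in the ESC arrays and 2.54, 2.76 and 2.88 in the day 4 arrays, near the lower end of the scale in both groups, and its difference was 0.03 (SE 0.19, adjusted p = 0.93). In bulk samples, fewer cells that express a gene and less RNA of it per cell cannot be told apart, which holds for every difference below.

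Day 4 EBs differed from ESCs in 7433 of 18193 genes, 40.9%, at an adjusted p under 0.05 (limma's moderated test, Benjamini-Hochberg adjustment over all 34945 probe sets). Of these, 3831 were higher on day 4, 21.1% of all genes, and 3602 were lower, 19.8%. At least 2-fold differences among them numbered 1315 upwards (7.23%) and 1256 downwards (6.9%). The median difference over all genes was 0.0033, and 51.5% of the genes that passed were higher on day 4. All 3 day 4 arrays lay above all 3 ESC arrays for 23.2% of genes and below them for 21.8%. The counts of the gene lists below stand beside these shares of all genes.

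**Figure D1:**
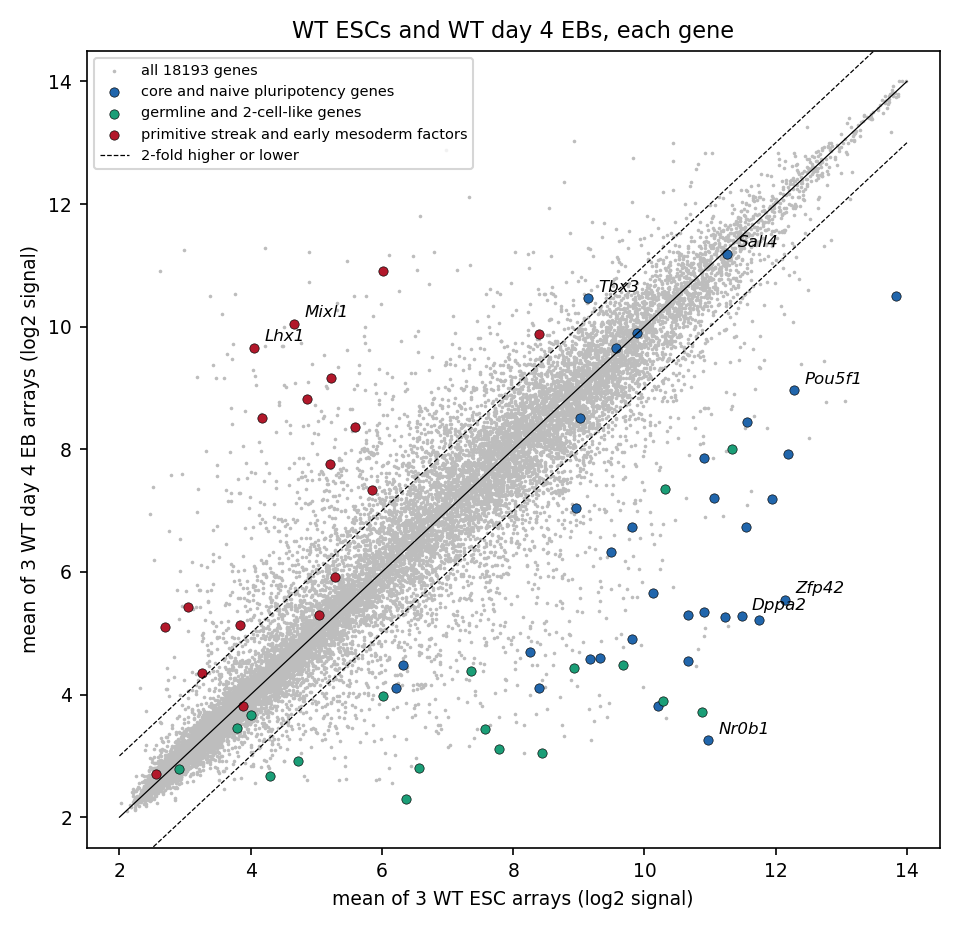
Mean log2 signal of each of the 18193 genes in the 3 WT ESC arrays (horizontal) and the 3 WT day 4 EB arrays (vertical); the solid line marks equal levels and the dashed lines 2-fold differences. Core and naive pluripotency genes and germline genes lie mostly below the lower dashed line, primitive streak factors mostly above the upper one, and Sall4 lies on the solid line.

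Most core pluripotency factors fell. Of 9 measured, 7 were lower on day 4, none was higher, and their median difference was -3.16. Pou5f1, the POU factor without which pluripotency is lost, read 12.21, 12.14 and 12.49 in the ESC arrays and 8.31, 8.89 and 9.68 in the day 4 arrays. It fell by 3.32 (SE 0.37, adjusted p = 1.9e-09), a 9.99-fold decrease, and the groups did not overlap, although the third day 4 array stayed above the others. Nanog, the homeobox factor that stabilises the network, read 11.31, 11.32 and 12.05 in the ESC arrays and 7.87, 8.50 and 8.97 in the day 4 arrays and fell by 3.11 (SE 0.45, adjusted p = 4.8e-07), again with the third day 4 array highest. Sox2, the partner of Pou5f1 on DNA, read 11.78, 12.02 and 12.05 in the ESC arrays and 7.54, 7.67 and 6.37 in the day 4 arrays; it fell by 4.76 (SE 0.34, adjusted p = 4.5e-14), and here the third day 4 array was the lowest. Dppa4 and L1td1, both marks of undifferentiated cells, fell by 4.82 and 4.26. Utf1 fell by 3.16. Foxd3, a forkhead repressor, fell by 1.84. The exceptions were Sall4, a zinc-finger factor shared with early embryonic progenitors, at 11.06, 11.31 and 11.40 in the ESC arrays and 11.05, 11.24 and 11.29 in the day 4 arrays, and Lin28a, the RNA-binding protein that blocks let-7 maturation, at 9.79, 10.06 and 9.83 in the ESC arrays and 9.78, 9.83 and 10.10 in the day 4 arrays. Their differences were -0.063 (SE 0.20, adjusted p = 0.86) and 0.01 (SE 0.33, adjusted p = 0.99), and in both genes the groups overlapped. Both were lower on day 8, at 8.98 ± 0.14 and 7.50 ± 0.067 (mean ± SD, n = 3).

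Nearly all naive pluripotency genes fell: 22 of 24 measured were lower, 1 was higher, and the median difference was -4.54. In these 22 every day 4 array was below every ESC array. Nr0b1 (Dax1), an orphan nuclear receptor of the ESC network, read 10.84, 10.72 and 11.35 in the ESC arrays and 3.43, 3.24 and 3.11 in the day 4 arrays. It fell by 7.71 (SE 0.22, adjusted p = 3.9e-25), the largest decrease among genes that passed with separate groups, clone and locus symbols left out. Zfp42, the Rex1 marker of naive cells, read 12.04, 12.15 and 12.22 in the ESC arrays and 5.11, 6.12 and 5.41 in the day 4 arrays and fell by 6.59 (SE 0.46, adjusted p = 1.8e-14). Esrrb, an orphan receptor that Nanog activates, read 10.19, 9.91 and 10.52 in the ESC arrays and 3.47, 4.09 and 3.90 in the day 4 arrays and fell by 6.39 (SE 0.25, adjusted p = 3.5e-21). Klf2 read 11.12, 10.94 and 11.62 in the ESC arrays and 5.27, 5.28 and 5.22 in the day 4 arrays and fell by 5.97 (SE 0.24, adjusted p = 6.9e-21); Klf5 fell by 3.86 and Klf4 by 3.04. These are the 3 Kruppel-like factors of the naive network, and none of their ESC and day 4 arrays overlapped.

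Fbxo15, Dppa2 and Tcl1, ESC genes bound by Pou5f1 or its partners, fell by 6.54, 6.19 and 6.11. Fgf4, the FGF ligand that ESCs themselves secrete, read 10.59, 10.46 and 10.97 in the ESC arrays and 5.14, 5.02 and 5.73 in the day 4 arrays and fell by 5.38 (SE 0.20, adjusted p = 6.4e-22). Tfcp2l1, Nr5a2 and Prdm14, regulators of the naive state, fell by 4.90, 4.72 and 3.56, and Dppa3 (Stella) by 4.59. Dppa5a, an RNA-binding protein of ESCs, remained at 10.05, 10.53 and 10.91 on day 4 from 13.78, 13.74 and 13.96, a decrease of 3.33 that still left it near the highest 5% of values. Components of the LIF pathway moved by different amounts. Socs3, the feedback inhibitor that Stat3 induces, read 10.14, 10.14 and 10.12 in the ESC arrays and 5.97, 5.59 and 5.38 in the day 4 arrays and fell by 4.49 (SE 0.24, adjusted p = 2.0e-17). Stat3 itself fell by 1.91 and the receptor subunit Il6st (gp130) by 0.51, while the receptor subunit Lifr, at 9.30, 9.62 and 9.75 in the ESC arrays and 9.70, 9.77 and 9.48 in the day 4 arrays, differed by 0.093 (SE 0.14, adjusted p = 0.67). The adjusted p of Il6st was 0.0016, and with the probe sets of a gene averaged it no longer passed (difference -0.24, adjusted p = 0.16).

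The 1 naive gene that rose was Tbx3, a T-box factor with a second role in early endoderm and mesoderm. It read 8.87, 8.47 and 10.08 in the ESC arrays and 10.54, 10.50 and 10.35 in the day 4 arrays and rose by 1.32 (SE 0.29, adjusted p = 3.6e-04). The groups were separate by a narrow margin, since the third ESC array, at 10.08, came close to the lowest day 4 value of 10.35. The plot of each array shows the contrast between the genes that fell, those that held their level and those that rose.

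**Figure D2:**
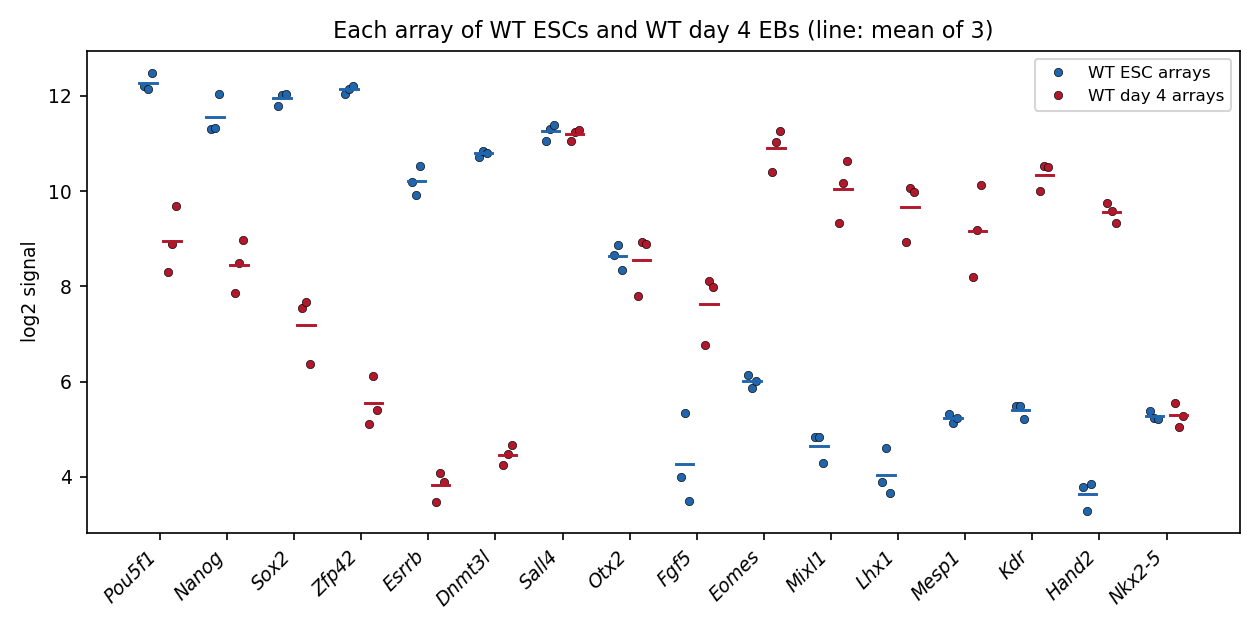
Log2 signal of 16 genes in each of the 3 WT ESC arrays (blue) and 3 WT day 4 EB arrays (red); horizontal lines are group means. Pou5f1, Nanog, Sox2, Zfp42, Esrrb and Dnmt3l are lower on day 4, Sall4, Otx2 and Nkx2-5 overlap, and Fgf5, Eomes, Mixl1, Lhx1, Mesp1, Kdr and Hand2 are higher.

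Most genes of the germline and of the 2-cell-like state fell as well. Of 18 measured, 15 fell and none rose, with a median of -3.54. Morc1, which silences transposons in male germ cells, read 10.77, 11.00 and 10.84 in the ESC arrays and 2.85, 4.66 and 3.64 in the day 4 arrays; it fell by 7.15 (SE 0.30, adjusted p = 1.7e-20), with the second day 4 array highest and no overlap. Mageb16 fell by 6.38 (SE 0.27, adjusted p = 3.4e-20). Mael and Tdrd12, of the piRNA pathway, fell by 5.40 and 5.19. Ddx4 (Vasa), an RNA helicase of germ cells, fell by 4.66, Stk31 by 4.08, the meiotic genes Sycp3 and Hormad1 by 2.96 and 3.76, and the X-linked homeobox genes Rhox5, Rhox6 and Rhox9 by 3.33, 4.13 and 2.96. Tcstv1 and Usp17la, which mark 2-cell-like cells, did not pass, at -0.11 and -0.34, and neither did Tex101 (-0.33).

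Among the genes that set and remove DNA methylation, 6 of 9 fell and none rose, with a median of -0.47. Dnmt3l, the inactive cofactor that stimulates new methylation, read 10.72, 10.85 and 10.81 in the ESC arrays and 4.24, 4.49 and 4.67 in the day 4 arrays and fell by 6.33 (SE 0.19, adjusted p = 2.2e-24). Tet1, which oxidises 5-methylcytosine, read 11.38, 11.58 and 11.64 in the ESC arrays and 8.10, 8.67 and 8.26 in the day 4 arrays and fell by 3.19 (SE 0.16, adjusted p = 4.9e-18). Its relative Tet2 read 9.08, 8.92 and 9.66 in the ESC arrays and 5.84, 6.22 and 6.21 in the day 4 arrays and fell by 3.13 (SE 0.17, adjusted p = 3.6e-17). Both had separate groups, whereas the third Tet gene, Tet3, differed by 0.033 (SE 0.18, adjusted p = 0.92) and its groups overlapped. The methyltransferases that set new marks did not pass: Dnmt3b, at 11.63, 12.27 and 11.39 in the ESC arrays and 11.75, 11.80 and 11.70 in the day 4 arrays, differed by -0.013 (SE 0.26, adjusted p = 0.98) and Dnmt3a by -0.47 (SE 0.30, adjusted p = 0.25). The maintenance enzyme Dnmt1 fell by 0.42. Zfp57, which protects imprints, fell by 1.71.

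Primed epiblast genes did not move as a block. Of 16 measured, 7 were higher and 3 lower, and the median was 0.20. Fgf5, the classic mark of the epiblast, read 3.99, 5.35 and 3.49 in the ESC arrays and 6.77, 8.12 and 7.98 in the day 4 arrays. It rose by 3.35 (SE 0.43, adjusted p = 6.1e-08), and the second ESC array was its highest in that group. Lef1, a Wnt effector, rose by 2.45, Car14 by 2.01, Fzd2 by 1.63, Sall2 by 1.54 and Tead2 by 1.06. Pou3f1 (Oct6), an epiblast POU factor, read 8.98, 9.74 and 7.58 in the ESC arrays and 5.73, 5.73 and 6.46 in the day 4 arrays and fell by 2.79 (SE 0.38, adjusted p = 1.3e-07). Grhl2 and Pim2 fell by 2.05 and 1.94. Otx2, the epiblast and anterior homeobox factor, read 8.67, 8.88 and 8.35 in the ESC arrays and 7.80, 8.94 and 8.90 in the day 4 arrays and differed by -0.087 (SE 0.44, adjusted p = 0.92), with overlapping groups. Sox3 (-0.44), Zic2 (0.41) and Zic5 (-1.03) did not pass. The ESC arrays spread more for these genes than for naive ones: the mean over the 16 genes was 7.67, 8.23 and 7.18 in the ESC arrays, a wider range than the 7.64, 8.12 and 8.17 of day 4. The ESC array lowest for primed genes, the third, was the highest of the ESC arrays in 22 of the 24 naive genes.

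Primitive streak and early mesoderm factors rose in 15 of 18 cases and fell in none, with a median of 2.40, the highest of the 24 lists. Lhx1, a LIM homeobox factor of the streak and its derivatives, read 3.89, 4.60 and 3.66 in the ESC arrays and 8.94, 10.06 and 9.99 in the day 4 arrays and rose by 5.61 (SE 0.36, adjusted p = 2.7e-15). Mixl1, the Mix-family homeobox factor of the streak, read 4.84, 4.83 and 4.30 in the ESC arrays and 9.34, 10.17 and 10.64 in the day 4 arrays and rose by 5.39 (SE 0.25, adjusted p = 3.2e-19). Eomes, the T-box factor that sets up mesoderm and endoderm, read 6.15, 5.86 and 6.01 in the ESC arrays and 10.40, 11.03 and 11.27 in the day 4 arrays and rose by 4.89 (SE 0.30, adjusted p = 3.8e-16), a 29.7-fold increase. In all 3 genes the first day 4 array was the lowest, and the groups were more than 4 log2 units apart in their means.

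Evx1, a homeobox factor of the posterior streak, read 3.98, 4.43 and 4.11 in the ESC arrays and 8.05, 8.46 and 9.01 in the day 4 arrays and rose by 4.33 (SE 0.17, adjusted p = 5.2e-21). Mesp1, the bHLH factor of the first mesoderm and of heart precursors, read 5.33, 5.14 and 5.23 in the ESC arrays and 8.20, 9.18 and 10.14 in the day 4 arrays and rose by 3.94 (SE 0.23, adjusted p = 9.8e-17), with day 4 arrays almost 2 units apart from lowest to highest. Gsc, of the anterior streak and organiser, rose by 2.41, Foxa2, of endoderm and node, by 3.96, the Wnt targets Sp5 and Cdx2 by 2.78 and 2.55, Hand1 by 1.48 and Tbx6, of paraxial mesoderm, by 1.10. Msgn1, the presomitic factor, differed by 0.26 (SE 0.15, adjusted p = 0.2), and Cdx1 and Cdx4 by -0.067 and 0.16, so these 3 did not pass. The first day 4 array was the lowest of its group in 13 of the 18 genes, and its mean over them was 6.76, against 7.11 and 7.50 in the other 2; the ESC arrays lay between 4.58 and 4.69.

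The stretch before a gene's start was read for letters that factors of these lists can bind. Pou5f1 binds an octamer element, and its 7-letter core TTTGCAT was searched for on both strands in the 250 bases before the start of each gene, in the RefSeq promoter table of build GRCm38.p6, which held 14452 of the genes tested. It was present in 3.44% of all of them, in 54 of 996 genes that were at least 2-fold lower on day 4 (5.42%) and in 25 of 1022 at least 2-fold higher (2.45%). Of 22 core and naive pluripotency genes with a promoter entry, Sox2, Nanog and Zfp42 held it; of 14 streak factors, Evx1, Cdx2 and Cdx4 did. The sequences of Nanog, Zfp42 and Evx1 are shown because they carry the same letters in 2 genes that fell and in 1 that rose, each 5′ to 3′ on the gene's own strand, with the core in capitals:
Nanog, chr6:122707239-122707488, plus strand: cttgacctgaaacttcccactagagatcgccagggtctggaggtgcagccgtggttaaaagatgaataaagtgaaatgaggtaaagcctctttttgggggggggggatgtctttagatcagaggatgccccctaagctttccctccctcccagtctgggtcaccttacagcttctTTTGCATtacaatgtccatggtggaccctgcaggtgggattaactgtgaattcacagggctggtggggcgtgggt
Zfp42, chr8:43307010-43307259, minus strand: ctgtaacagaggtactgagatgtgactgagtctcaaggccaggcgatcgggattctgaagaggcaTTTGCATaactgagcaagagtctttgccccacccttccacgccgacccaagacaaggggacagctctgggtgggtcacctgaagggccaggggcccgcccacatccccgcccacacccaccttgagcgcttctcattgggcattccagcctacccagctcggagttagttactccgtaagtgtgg
Evx1, chr6:52313248-52313497, plus strand: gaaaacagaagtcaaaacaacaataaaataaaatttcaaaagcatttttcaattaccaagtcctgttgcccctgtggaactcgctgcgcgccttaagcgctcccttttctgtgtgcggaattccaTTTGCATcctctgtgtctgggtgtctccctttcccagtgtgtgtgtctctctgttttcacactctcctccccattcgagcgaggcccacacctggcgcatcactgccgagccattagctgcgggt
In these windows the core began 75, 185 and 125 bases before the start of Nanog, Zfp42 and Evx1. Nanog and Zfp42 fell by 3.11 and 6.59, and Evx1 rose by 4.33.

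Searched the same way, the E-box CAGGTG, which Snai1 and Zeb1 can bind, was in 16.9% of all promoters, 21.2% of those of genes at least 2-fold lower and 13.8% of those at least 2-fold higher. The T-box half-site AGGTGTG, which can overlap that E-box by the letters AGGTG, was in 4.59% of all promoters, 3.91% of those of the higher genes and 4.82% of those of the lower. The LEF/TCF letters TTCAAAG were in 3.76%, 3.33% and 3.21%. These shares describe letters in a short window and say nothing of binding.

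Ligands and inhibitors of the Nodal pathway mostly fell, and receptors and Smads mostly rose or did not pass. Of 19 measured, 8 were higher and 7 lower, with a median of 0.20. The ligand Nodal read 10.04, 9.88 and 10.03 in the ESC arrays and 7.68, 8.00 and 8.00 in the day 4 arrays and fell by 2.09 (SE 0.24, adjusted p = 5.3e-09). Gdf3, a related ligand of ESCs, fell by 4.90, and Tdgf1 (Cripto), the co-receptor, by 1.89. The feedback inhibitor Lefty1 read 10.56, 10.08 and 9.82 in the ESC arrays and 6.43, 6.49 and 6.42 in the day 4 arrays and fell by 3.71 (SE 0.20, adjusted p = 1.7e-17). Lefty2 read 8.48, 8.04 and 7.66 in the ESC arrays and 3.59, 4.75 and 5.86 in the day 4 arrays and fell by 3.33 (SE 0.35, adjusted p = 8.3e-10), with the third day 4 array highest and no overlap. Another inhibitor, Cer1, which marks anterior endoderm, rose by 2.55 (SE 0.21, adjusted p = 1.0e-12). On the receiving side, the receptor Acvr2a rose by 1.15, Smad3 by 1.50, Smad4 by 0.71 and Foxh1, the DNA-binding partner of Smad2, by 1.48. Acvr1c (-0.0033), Acvr2b (0.34) and Smad7 (0.20) did not pass.

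BMP pathway genes rose among ligands, receptors, Smads and targets: 19 of 25 were higher and 1 lower, with a median of 1.47. The ligand Bmp5 read 3.52, 3.61 and 3.64 in the ESC arrays and 9.37, 9.30 and 8.84 in the day 4 arrays and rose by 5.58 (SE 0.18, adjusted p = 8.3e-24). Bmp2, a ligand of early mesoderm and endoderm, read 4.56, 4.82 and 4.09 in the ESC arrays and 9.74, 9.74 and 9.58 in the day 4 arrays and rose by 5.20 (SE 0.22, adjusted p = 3.2e-20). Bmp4, the ligand that drives mesoderm in the embryo, was already high in ESCs, at 9.15, 9.70 and 10.03 in the ESC arrays and 10.13, 10.45 and 10.50 in the day 4 arrays, and rose by 0.73 (adjusted p = 0.024); it did not pass without the first ESC array (difference 0.50, adjusted p = 0.19), the second day 4 array (0.69, adjusted p = 0.072) or the third (0.66, adjusted p = 0.082). The receptors Bmpr1a, Bmpr2 and Acvr1 rose by 1.27, 1.35 and 1.54, and the effector Smad1 by 2.71 to 10.66, 11.09 and 11.10.

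Targets and inhibitors of BMP signalling mostly rose. Msx2, a homeobox target, read 5.33, 5.44 and 5.60 in the ESC arrays and 11.10, 11.16 and 10.94 in the day 4 arrays and rose by 5.61 (SE 0.18, adjusted p = 1.8e-23). Msx1 rose by 4.97, the inhibitory Smad6 by 4.26, the pseudoreceptor Bambi by 2.81, the antagonist Fst by 2.22 and the extracellular modulator Bmper by 6.0. The Id genes, direct targets that block bHLH factors, diverged: Id3 rose by 1.97, Id1 by 0.87, Id2, at 9.93, 10.26 and 8.59 in the ESC arrays and 9.97, 9.55 and 9.27 in the day 4 arrays, differed by 0.0033, and Id4 fell by 1.33, the only member that did. Without the third ESC array, the lowest for Id1, its difference was 0.55. Chrd (0.29) and Grem1 (0.037), secreted antagonists, did not pass.

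In the Wnt pathway 20 of 31 genes were higher and 5 lower, with a median of 0.86. Rspo3, the secreted enhancer of Wnt signalling, read 3.64, 3.35 and 3.43 in the ESC arrays and 8.99, 9.24 and 9.24 in the day 4 arrays and rose by 5.68 (SE 0.20, adjusted p = 2.3e-22). Wnt5a, a ligand of the non-canonical branch, read 4.18, 4.17 and 4.29 in the ESC arrays and 9.93, 9.76 and 9.38 in the day 4 arrays and rose by 5.48 (SE 0.28, adjusted p = 6.1e-18). Wnt3, the ligand of the forming streak, rose by 2.83, Wnt5b by 1.77 and Wnt4 by 1.61, while Wnt3a and Wnt8a, both expressed in the streak, did not pass, at -0.31 and 0.32. Axin2, a general feedback target of beta-catenin, read 5.69, 6.21 and 5.29 in the ESC arrays and 8.32, 8.44 and 8.53 in the day 4 arrays and rose by 2.70 (SE 0.16, adjusted p = 1.4e-16). The inhibitors Dkk1, Nkd1 and Apcdd1 rose by 4.97, 3.11 and 4.31. Among those that fell were the receptor Fzd5, Tcf7l1, the ligand Wnt7b and the inhibitor Sfrp2, by 1.73, 0.86, 0.71 and 0.72; Tcf7l1 (Tcf3) is the repressor of Wnt targets in ESCs.

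Genes of the FGF pathway moved in both directions: 9 of 22 were higher, 9 lower, and the median was 0.072. Against the fall of Fgf4, the streak ligand Fgf8 read 3.99, 3.97 and 3.84 in the ESC arrays and 6.64, 8.04 and 8.62 in the day 4 arrays and rose by 3.83 (SE 0.29, adjusted p = 2.3e-13). Fgf3, Fgf10 and Fgf15 rose by 3.52, 3.43 and 2.25, and Fgf17 fell by 1.15. Of the receptors, Fgfr1, Fgfr2 and Fgfr3 rose by 1.08, 0.82 and 0.73, and Fgfr4 did not pass (-0.25). The targets and inhibitors of the pathway fell for the most part: Spry4 by 2.76, Etv5 by 2.63, Dusp6 by 1.27, Spry2 by 1.23 and Etv4 by 1.05. Dusp4, a phosphatase of the same kind as Dusp6, rose by 0.58 and did not pass without the second ESC array or either the second or the third day 4 array (0.41 to 0.54, adjusted p up to 0.14). Dusp6 read 8.54, 9.22 and 9.86 on day 4, more than 1 unit between the lowest and the highest array.

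Genes of the epithelial to mesenchymal switch changed in all 20 cases, 15 upwards and 5 downwards, with a median of 1.50, and no gene of the list had overlapping groups. Cdh11, a cadherin of mesenchyme, read 2.82, 3.06 and 3.10 in the ESC arrays and 11.32, 11.41 and 11.03 in the day 4 arrays and rose by 8.26 (SE 0.23, adjusted p = 2.5e-25), a 307-fold increase. Cdh2 (N-cadherin) read 6.43, 7.26 and 5.93 in the ESC arrays and 10.77, 11.09 and 10.94 in the day 4 arrays and rose by 4.39 (SE 0.31, adjusted p = 1.6e-14). Cdh1 (E-cadherin), its epithelial counterpart, read 11.33, 11.60 and 11.12 in the ESC arrays and 10.79, 10.78 and 10.40 in the day 4 arrays; it fell by 0.69 (SE 0.20, adjusted p = 0.0048), a 1.62-fold decrease, and stayed in the highest 5% of values. Epcam fell by 0.71, Cldn4 by 2.00, Grhl2, an activator of epithelial genes, by 2.05 and the splicing factor Esrp1 by 0.91. The other two claudins of the list rose: Cldn6 by 0.93, and Cldn7 by 0.73, which did not pass without the third ESC array (difference 0.46, adjusted p = 0.13) or the first day 4 array (0.61, adjusted p = 0.054).

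The repressors of epithelial genes rose: Zeb2 by 4.18, Twist1 by 3.17, Snai2 by 3.12, Snai1 by 1.69 and Zeb1 by 0.73. Snai2 read 9.51, 9.13 and 7.35 on day 4, with the third array far below the others and still above the ESC arrays. The mesenchymal filament and matrix genes Vim and Fn1 rose by 1.62 and 0.99. Keratins of simple epithelia rose too: Krt8 read 10.24, 8.76 and 7.80 in the ESC arrays and 13.26, 12.97 and 12.84 in the day 4 arrays and rose by 4.09 (SE 0.31, adjusted p = 1.4e-13), and its partner Krt18 rose by 3.59. The ESC arrays were spread over more than 2 units for Krt8, the first being the highest, and all were below the day 4 arrays.

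Lateral and paraxial mesoderm and mesenchyme genes rose in 15 of 25 cases and fell in 1, with a median of 0.77. Rgs5, a regulator of G-protein signalling of mural cells, read 3.28, 4.05 and 2.80 in the ESC arrays and 10.61, 10.59 and 10.29 in the day 4 arrays and rose by 7.12 (SE 0.29, adjusted p = 6.2e-21). Nrp1, the co-receptor of Vegf and semaphorins, read 4.67, 4.17 and 3.83 in the ESC arrays and 11.57, 11.34 and 10.94 in the day 4 arrays and rose by 7.06 (SE 0.18, adjusted p = 2.8e-26). Foxf1, of lateral mesoderm, rose by 5.98 (SE 0.20, adjusted p = 3.9e-23). Pdgfra and Pdgfrb, receptors of mesoderm and mesenchyme, rose by 5.20 and 4.98, Foxc2 by 2.13 and Twist2 by 1.72. Tcf15, a bHLH factor that ESCs express as they prime and somites express later, read 9.61, 10.34 and 9.85 in the ESC arrays and 6.39, 6.66 and 6.59 in the day 4 arrays and was the 1 gene that fell, by 3.39.

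Of the somite genes, Meox1 (0.00), Hes7 (-0.077) and Lfng (-0.32) did not pass, and neither did Tcf21 (0.25), of visceral mesenchyme. Dll3, a Notch ligand of presomitic mesoderm, rose by 1.06; it did not pass without the third ESC array (difference 0.82, adjusted p = 0.058) or the second day 4 array (0.81, adjusted p = 0.06). Prrx1, a homeobox factor of mesenchyme, rose by 0.79 and did not pass when any 1 of 4 arrays was left out (0.64 to 0.76, adjusted p up to 0.11). Among matrix genes of connective tissue, Col1a1 rose by 1.18, Col6a1 by 0.76 and Col1a2 by 0.77, the last not passing without the third ESC array (difference 0.52, adjusted p = 0.099). Lum, Col3a1 and Dcn did not pass and were below the array medians in all 6 arrays. Lum read 3.14, 3.07 and 2.90 in the ESC arrays and 3.01, 2.93 and 2.95 in the day 4 arrays. Col3a1 read 3.98, 4.42 and 3.58 in the ESC arrays and 3.77, 3.95 and 4.37 in the day 4 arrays, and Dcn read 4.39, 4.58 and 4.55 in the ESC arrays and 4.57, 4.47 and 4.42 in the day 4 arrays. On day 8 these genes stood at 12.87 ± 0.092, 14.20 ± 0.021 and 12.21 ± 0.27 (mean ± SD, n = 3).

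Haemangioblasts are the shared precursors of blood and vessels. In the list of haemangioblast and endothelial genes 9 of 19 rose, 3 fell and 7 did not pass, with a median of 0.50. Aplnr, the apelin receptor of nascent mesoderm, read 2.76, 2.45 and 2.65 in the ESC arrays and 10.81, 10.94 and 10.96 in the day 4 arrays. It rose by 8.28 (SE 0.21, adjusted p = 2.8e-26), a 312-fold increase. This was the largest rise among genes that passed with separate groups, clone and locus symbols left out. Kdr (Flk1), the Vegf receptor that marks haemangioblasts, read 5.49, 5.49 and 5.22 in the ESC arrays and 10.01, 10.52 and 10.50 in the day 4 arrays and rose by 4.94 (SE 0.20, adjusted p = 6.1e-21). Etv2, the Ets factor that starts the lineage, read 6.23, 6.38 and 5.64 in the ESC arrays and 8.80, 9.06 and 9.88 in the day 4 arrays and rose by 3.16 (SE 0.26, adjusted p = 1.9e-12). Lmo2 and Tal1, which act in 1 complex, rose by 3.29 and 2.20, and Gata2 by 1.36.

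The 9 rises of the haemangioblast and endothelial list are not all named above. Its 7 genes that did not pass included the endothelial markers Cdh5, Emcn, Tie1 and Sox18. Cdh5, at 3.67, 3.60 and 3.40 in the ESC arrays and 3.80, 3.81 and 3.73 in the day 4 arrays, differed by 0.22, Emcn by -0.05, Tie1 by -0.17 and Sox18 by -0.21. Tek and Plvap, both read in ESCs, fell by 2.70 and 1.85. Eng (endoglin) fell by 0.39 and did not pass with only the 6 arrays compared (adjusted p = 0.074), nor when any 1 of 3 arrays was left out (-0.41 to -0.28). Of 15 genes of primitive blood, 2 were higher and 1 lower, beside 21.1% and 19.8% of all genes. Runx1 read 3.47, 3.82 and 3.57 in the ESC arrays and 7.40, 7.65 and 6.96 in the day 4 arrays and rose by 3.72 (SE 0.26, adjusted p = 3.0e-14), the erythropoietin receptor Epor rose by 0.69, and Myb, at 7.92, 8.08 and 7.41 in the ESC arrays and 4.23, 5.79 and 5.36 in the day 4 arrays, fell by 2.68. The embryonic globins were low in both groups: Hbb-bh1 read 3.65, 3.78 and 3.57 in the ESC arrays and 4.22, 4.15 and 3.96 in the day 4 arrays, and Hbb-y and Hba-x differed by 0.073 and 0.033. Hbb-bh1 stood at 13.96 ± 0.046 on day 8. The erythroid factors Gata1 and Klf1 did not pass on day 4, at -0.12 and -0.37.

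Of 24 genes of cardiac progenitors and heart muscle, 10 were higher and 3 lower, with a median of 0.56. The largest of these rises were in Tbx20 and Hand2. Hand2, a bHLH factor of the second heart field, read 3.79, 3.29 and 3.85 in the ESC arrays and 9.75, 9.59 and 9.33 in the day 4 arrays and rose by 5.91 (SE 0.19, adjusted p = 1.3e-23). The T-box factor Tbx20 rose by 5.95 (SE 0.26, adjusted p = 3.7e-20). Isl1, of the same field, rose by 3.79, Gata4 by 2.55, Smarcd3 (Baf60c) by 2.22 and Mef2c by 1.07. Nkx2-5, the factor of committed heart cells, read 5.38, 5.24 and 5.21 in the ESC arrays and 5.56, 5.04 and 5.28 in the day 4 arrays and differed by 0.017 (SE 0.24, adjusted p = 0.97), and Tbx5 by 0.17. Of the contractile genes, Tnnc1 rose by 3.84 and Myl7, the atrial light chain, by 3.24, while Tnnt2 (0.83), Myl2 (1.08), Myh7 (0.30) and the peptide hormone gene Nppa (0.20) did not pass. Myh6, a myosin heavy chain, fell by 2.64 from ESC levels of 6.07, 6.50 and 5.08, and Ttn, the giant sarcomere protein, by 2.45 from 5.19, 5.55 and 5.57. Averaged over its probe sets, Ttn differed by -0.57 (adjusted p = 0.096).

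Endoderm genes rose in 12 of 23 cases and fell in 3, with a median of 0.91. Sox17, which marks definitive and extraembryonic endoderm and early endothelium, read 3.43, 3.89 and 3.35 in the ESC arrays and 10.30, 10.32 and 10.02 in the day 4 arrays and rose by 6.66 (SE 0.29, adjusted p = 5.2e-20). Cxcr4, the chemokine receptor used to sort definitive endoderm and also expressed in mesoderm, read 3.83, 3.72 and 3.62 in the ESC arrays and 9.61, 9.46 and 9.37 in the day 4 arrays and rose by 5.76 (SE 0.19, adjusted p = 2.5e-23). Gata6 rose by 4.45, Foxa1 by 4.0, Foxa2 by 3.96 and Hhex by 1.07. The 8 genes of the list that did not pass included the liver and yolk sac genes Alb (0.083), Afp (0.23), Apoa1 (0.20) and Hnf4a (0.18). Others of that kind passed, in either direction, and not all are named here. Ttr, a thyroid hormone carrier of visceral endoderm, read 3.84, 3.35 and 3.08 in the ESC arrays and 6.90, 6.04 and 5.58 in the day 4 arrays and rose by 2.75. Lrp2, an endocytic receptor of visceral endoderm, and Apoe fell by 2.57 and 1.55.

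Of 18 neural genes, 7 fell and 2 rose, with a median of -0.11. Sox1, the first mark of neural fate, read 5.62, 5.69 and 5.90 in the ESC arrays and 5.51, 5.55 and 5.86 in the day 4 arrays and differed by -0.097 (SE 0.14, adjusted p = 0.67). Gbx2, which is also a gene of naive ESCs, fell by 4.28, Pax6 by 2.88, Tubb3 by 2.62 and Stmn2 by 2.44 from ESC levels of 11.05, 10.75 and 11.27. Fabp7 and Zic1 were the pair that rose, by 3.29 and 2.11; Zic1 is also expressed in mesoderm. Neurog1, Neurog2, Olig2 and Nkx2-2 did not pass, at -0.12, -0.10, -0.067 and -0.053.

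Hox genes pattern the body axis. Of 28 measured, 10 rose and none fell, with a median of 0.20. Hoxd1 read 2.75, 3.02 and 3.07 in the ESC arrays and 7.77, 7.53 and 7.51 in the day 4 arrays and rose by 4.66 (SE 0.17, adjusted p = 1.8e-22). Hoxb1 read 2.72, 2.91 and 2.66 in the ESC arrays and 6.29, 6.35 and 7.38 in the day 4 arrays and rose by 3.91 (SE 0.23, adjusted p = 1.9e-16), and Hoxb2, Hoxb3 and Hoxb4 rose by 3.42, 2.39 and 0.72. Hoxb6 read 5.84, 4.25 and 4.35 on day 4 and rose by 1.48, a difference of 0.97 without the first day 4 array; Hoxb5, at 4.96, 3.67 and 3.64, rose by 0.73 and did not pass without that array (difference 0.29, adjusted p = 0.28). Of the other genes of that cluster, Hoxb7 and Hoxb9 did not pass, at 0.077 and 0.013. Hoxc4 rose by 1.68, and Hoxd8 and Hoxd9 by 1.36 and 1.38, while none of the 7 HoxA genes measured passed, with differences from -0.20 (Hoxa7) to 0.31 (Hoxa2). The first day 4 array was the highest of its group in 24 of the 28 genes.

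Of 13 genes of the trophoblast list, 6 were higher and 2 lower. Plac1 rose by 5.25 (SE 0.34, adjusted p = 3.4e-15) and Gata3 rose by 3.70 (SE 0.19, adjusted p = 4.4e-18); Eomes, Cdx2 and Hand1 also stand in the streak list, and Krt7 rose by 1.14. Elf5 and Tpbpa, which are more particular to trophoblast, did not pass, at 0.07 and 0.16, and Tfap2c and Ascl2 fell by 2.16 and 0.95. Of 19 fibroblast and feeder cell markers, 4 were higher and 3 lower, beside 21.1% and 19.8% of all genes, and the median was 0.037. The mean over that list was 5.27 to 5.76 in the ESC arrays and 5.62 to 5.85 on day 4. Its members Col3a1, Dcn and Lum were below the array medians in all 6 arrays, while the list mean was above those medians, 5.02 to 5.08, in each. Fbln2 rose by 3.89, and Timp1 and Ccn2 fell by 2.43 and 1.78.

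**Figure D3:**
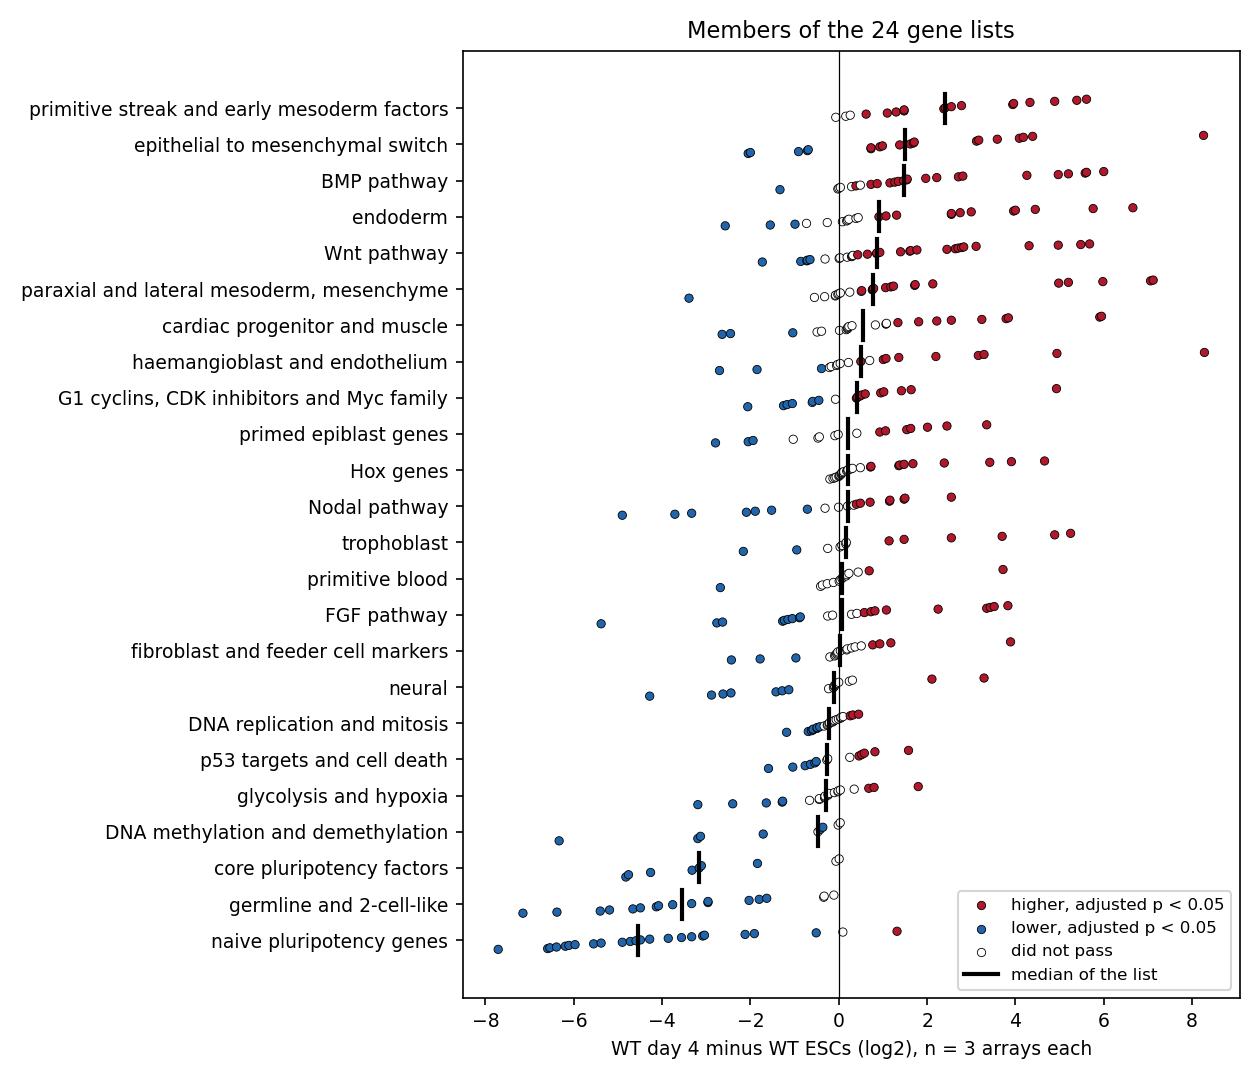
Difference between WT day 4 EBs and WT ESCs (log2) for each measured member of the 24 gene lists, ordered by the list's median (black bar); red and blue points passed at an adjusted p under 0.05 and white points did not. Naive pluripotency genes lie furthest down, with a median of -4.54, and primitive streak factors furthest up, at 2.40.

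Of 18 G1 cyclins, CDK inhibitors and Myc family genes, 10 were higher and 6 lower. Ccnd2 (cyclin D2) read 5.79, 6.26 and 4.65 in the ESC arrays and 10.13, 10.59 and 10.78 in the day 4 arrays and rose by 4.93 (SE 0.30, adjusted p = 6.3e-16). Ccnd1 rose by 0.95 and the inhibitor Cdkn1c (p57) by 1.02, while Ccne1 fell by 1.17 and the pocket protein genes Rb1 and Rbl2 by 1.05 and 2.06. Mycn, of the Myc family, read 11.05, 11.28 and 11.09 in the ESC arrays and 9.60, 9.94 and 10.12 in the day 4 arrays and fell by 1.25; Mycl rose by 1.64. Of 24 genes of DNA replication and mitosis, which carry out the cycle, 3 were higher and 8 lower, with a median of -0.22. The largest of these changes was in Cdt1, the licensing factor, which fell by 1.18. Mcm2 and Mcm3 fell by 0.58 and 0.62, Mki67 rose by 0.45, and Pcna (0.097), Ccna2 (0.05) and Top2a (0.043) did not pass.

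Of 22 genes of glycolysis and hypoxia, 5 fell and 3 rose, beside 19.8% and 21.1% of all genes, with a median of -0.28. In 13 of the 22, all 3 day 4 arrays lay below all 3 ESC arrays, and in 2 above them. Of all genes, 21.8% and 23.2% did so. In the SCR line 11 fell and 2 rose, beside 21.5% and 20.2% of all genes, with a median of -0.49. In WT, Pdk1, a pyruvate dehydrogenase kinase, read 10.81, 11.43 and 10.91 in the ESC arrays and 7.80, 8.23 and 7.54 in the day 4 arrays. It fell by 3.19 (SE 0.19, adjusted p = 3.3e-16). Pfkp, Hk2 and Hk1 fell by 2.40, 1.27 and 1.28, P4ha1 rose by 1.80 and Ldha by 0.68. Pgk1 (-0.22), Aldoa (-0.32) and the glucose carrier Slc2a1 (0.037) did not pass. Of 14 p53 targets and cell death genes, 5 were higher and 6 lower: Sesn1 rose by 1.58 and Pmaip1 (Noxa) by 0.82, and Bbc3 (Puma) and Mdm2 fell by 1.04 and 0.76.

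Of the 15 largest rises with separate groups, clone and locus symbols left out, 4 lie outside the lists. These were Asb4, a ubiquitin ligase adaptor, which rose by 6.78 (SE 0.22, adjusted p = 1.7e-23), Pmp22, a myelin and epithelial membrane protein, up by 6.32, Amot (angiomotin), a regulator of Hippo signalling, up by 5.90, and Cyp26a1, the enzyme that degrades retinoic acid, up by 5.84. Cyp26a1 read 5.03, 4.69 and 4.95 in the ESC arrays and 10.32, 10.90 and 10.97 in the day 4 arrays. Among the 15 largest falls, the 5 outside the lists were Mymx, Ooep, Rpl39l, Lgals3 and Calml4, lower by 6.71, 6.16, 6.07, 5.96 and 5.93. Mymx, a small protein known for myoblast fusion, read 10.33, 10.47 and 10.20 in the ESC arrays and 3.51, 4.29 and 3.06 in the day 4 arrays.

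Genes with a mean of at least 10 over the 6 arrays were ranked apart. The largest rises among them were Krt8 and Krt18, Prtg, which read 9.06, 8.26 and 8.34 in the ESC arrays and 11.93, 11.99 and 11.88 in the day 4 arrays and rose by 3.38 (SE 0.27, adjusted p = 5.1e-13), and the paternally expressed Peg3, which rose by 2.93 (SE 0.10, adjusted p = 7.3e-23). Ppic, Cd24a, Mest, Limd2, Scd2 and Tpm4 rose by 2.22 to 2.66. The largest falls were in metallothionein Mt1, which read 12.61, 12.49 and 12.39 in the ESC arrays and 7.79, 8.18 and 8.60 in the day 4 arrays and fell by 4.31 (SE 0.29, adjusted p = 8.3e-15), the mitochondrial Chchd10, down by 4.28, L1td1, and Mt2, down by 4.0. Mkrn1, Hspb1 and Zfp982 fell by 3.52, 3.30 and 3.12, and the remaining members were Dppa5a, Pou5f1 and Nanog. On day 8 Mt1 and Mt2 stood at 12.10 ± 0.13 and 11.88 ± 0.16, against ESC means of 12.50 and 12.77.

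The SCR line is a second control, with arrays of its own, in which the same step was measured. In SCR, 7580 genes passed, 41.7% of all, 20.2% of all genes upwards and 21.5% downwards, with a median over all genes of -0.05. Of the 1315 genes at least 2-fold higher on day 4 in WT, 996 were also at least 2-fold higher in SCR (where 7.23% of all genes were), which is 75.7% of the WT list and 75.7% of the SCR list; 1249 passed in the same direction and 3 in the opposite one. Of the 1256 at least 2-fold lower, 924 were so in SCR (6.8% of all genes), 73.6% of the WT list and 74.6% of the SCR list; 1169 passed in the same direction and 1 in the opposite one. Pou5f1 differed by -4.36 in SCR, Zfp42 by -7.70, Mixl1 by 4.53 and Aplnr by 8.59.

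The difference between the WT and the SCR change was tested as an interaction. It passed in 704 genes, 3.87% of all, of which 387 (2.13% of all genes) had the higher change in WT. This count moved with the arrays used: it was 19 with only the 12 arrays compared, of which 5 (26.3%) had the higher change in WT, 371 with the 30 arrays of both lines, of which 184 (49.6%) did, against 55% of the 704, and it was 1183 without the second WT ESC array, 249 without the third and 445 without the first WT day 4 array. Primed epiblast genes held 6 of the calls among 16 members, all with the higher change in WT: Fgf5 rose by 3.35 in WT and by 1.10 in SCR (interaction 2.25, SE 0.62, adjusted p = 0.037), and Pou3f1 fell by 2.79 against 5.14 (interaction 2.34, SE 0.53, adjusted p = 0.011). The others were Sall2, Pim2, Sox3 and Grhl2. With only the 12 arrays compared none of the 6 passed (Fgf5 at an adjusted p of 0.21, Pou3f1 at 0.12), and with the 30 arrays of both lines 4 did, without Fgf5 (adjusted p = 0.11) and Grhl2. Without the third WT ESC array, the lowest for primed genes, Sox3 alone passed, with Fgf5 at 1.85 (adjusted p = 0.15) and Pou3f1 at 1.75 (adjusted p = 0.066). None of the 9 core factors and, of 24 naive genes, only Jam2 passed.

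The 12 genes with the largest interactions against SCR, 6 in each direction, differed between the lines in ESCs more than on day 4. Thbs1, a secreted matrix protein, stood at 5.08 ± 0.83 in WT ESCs and 7.57 ± 0.82 in SCR ESCs (mean ± SD, n = 3), and at 4.99 and 4.56 on day 4; its interaction was 2.92 (SE 0.45, adjusted p = 3.0e-04). Calcr, Slc39a8, Igfbp3, Gbp2 and Efemp1 followed, at 2.85, 2.76, 2.75, 2.74 and 2.56. In the other direction, Nupr1, a stress-induced chromatin protein, stood at 9.31 ± 0.91 in WT ESCs and 6.10 ± 1.39 in SCR ESCs, and at 4.0 and 3.93 on day 4 (interaction -3.14, SE 0.62). Lrrc31, Chac1, St6galnac3, Mt4 and Pnma5 were at -2.52, -2.29, -2.26, -2.10 and -2.05. With only the 12 arrays compared, 10 of these 12 genes did not pass, Mt4 and Pnma5 being the exceptions. SCR ESCs differed from WT ESCs in 1650 genes, 9.07%, before any differentiation. Fibroblast and feeder cell markers moved with this comparison: 3 of 19 had the higher change in WT (Thbs1, Tagln and Acta2) and 1, Postn, the lower. In SCR 10 of the 19 fell, 3 rose and the median was -0.57, beside 3, 4 and 0.037 in WT. Their mean was 5.93 to 6.42 in SCR ESCs, above the 5.27 to 5.76 of WT ESCs, and 5.61 to 5.62 on day 4, beside 5.62 to 5.85 in WT. Their part in the interactions was not tested.

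**Figure D4:**
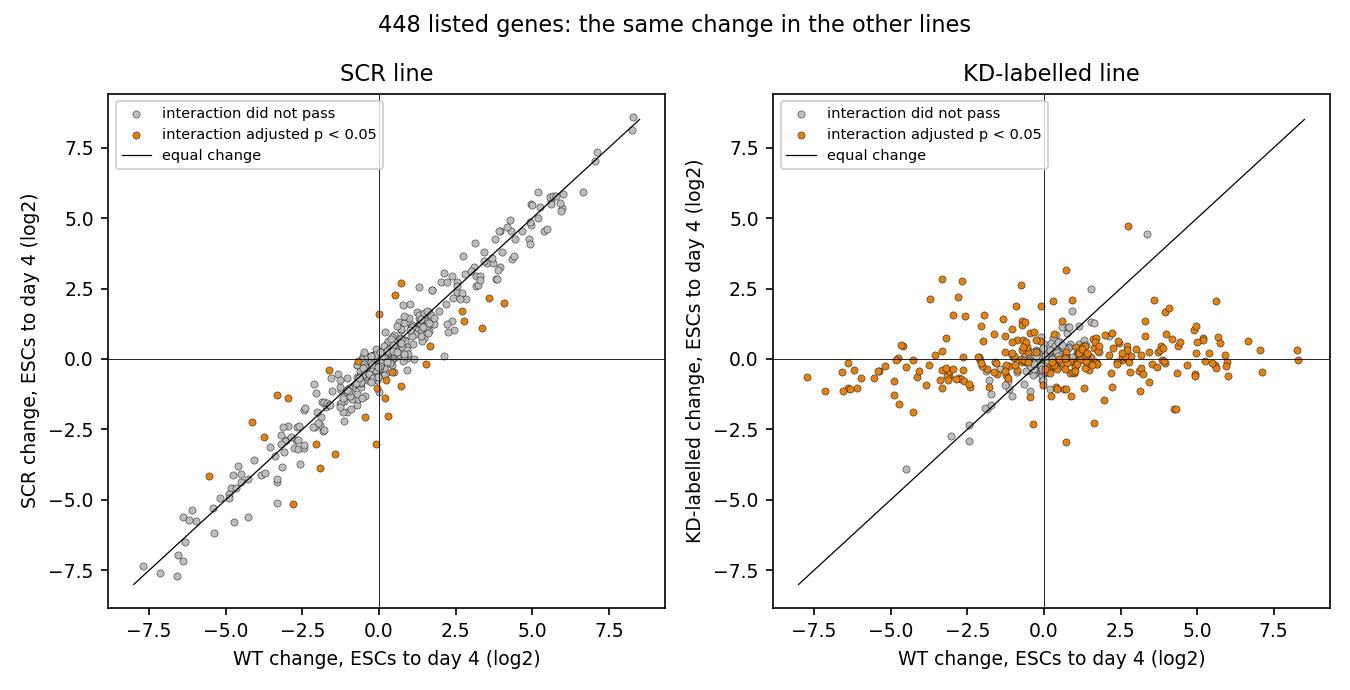
Change from ESCs to day 4 (log2) of 448 listed genes in WT (horizontal) against the change in SCR (left, vertical) and in the KD-labelled line (right, vertical); orange points passed the test of the difference between the 2 changes and the line marks equal change. Points lie along the line for SCR, while in the KD-labelled panel most genes with a large WT change lie near 0.

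The KD-labelled line tests whether the same step took place in cells described as silenced for Strip2. Its Strip2 levels, 2.72 ± 0.055 in ESCs and 3.04 ± 0.12 on day 4, were not below those of WT, 2.70 ± 0.27 and 2.73 ± 0.17. The 1 probe set of Strip2 was near the lower end of the scale in WT too, so it could hardly show a decrease. Whether the gene was silenced cannot be told from it, and the arrays of this line are called by their label only. In the KD-labelled line, 4126 genes passed between ESCs and day 4, 22.7% of all, 12% of all genes upwards and 10.7% downwards. Of the 1315 WT rises of at least 2-fold, 197 were so in the KD-labelled line, 15% of the WT list and 39.4% of its own 500 (2.75% of all genes); at any size, 514 (39.1%) passed in the same direction and 59 in the opposite one. Of the 1256 WT falls, 161 were, 12.8% of the WT list and 62.9% of its own 256 (1.41% of all genes); 439 (35%) passed in the same direction and 144 in the opposite one. Over the WT rises the median change was 1.55 in WT and 0.34 in the KD-labelled line, and over the falls -1.59 and -0.25.

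The difference between the WT and the KD-labelled change passed in 5202 genes, 28.6% of all. Among naive pluripotency genes it passed in 21 of 24, of which 19 had the lower change in WT and 2 the higher. Among core factors it passed in 6 of 9, all with the lower change in WT. Streak factors passed in 16 of 18 cases, all with the higher change in WT. Pou5f1 stood at 12.01 ± 0.11 in KD-labelled ESCs and 11.62 ± 0.092 on day 4 (interaction -2.94, SE 0.52), and Zfp42 at 12.19 ± 0.07 and 11.72 ± 0.12 (interaction -6.12, SE 0.65). Mixl1 stood at 4.83 ± 0.22 and 5.04 ± 0.34 (interaction 5.18, SE 0.36). The largest interactions were in Aplnr (8.30), Cdh11 (7.94) and Rgs5 (7.57) upwards, followed by Asb4, Nrp1 and Bmper, and in Mymx (-7.13), Nr0b1 (-7.08) and Nupr1 (-6.38) downwards, followed by Dpys, Mageb16 and Ooep.

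The 3 naive genes whose change did not differ by this test were Socs3, Klf4 and Stat3. Socs3 fell by 4.49 in WT and 3.91 in the KD-labelled line, Klf4 by 3.04 and 2.72, and Stat3 by 1.91 and 1.74. Their interactions were -0.58 (SE 0.34), -0.32 (SE 0.30) and -0.17 (SE 0.21). Among the core factors it was Foxd3, Sall4 and Lin28a that did not pass; Foxd3 differed by -1.84 in WT and -1.78 in the KD-labelled line. Fgf5 rose in this line too, by 4.45, beside 3.35 in WT (interaction -1.10, SE 0.62). Lefty1 and Lefty2, which fell in WT, rose by 2.14 and 2.83 in the KD-labelled line (adjusted p = 4.5e-10 and 2.0e-07), and Pou3f1 rose by 2.21.

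On later days only levels are given, since a step from day 4 onwards would share the day 4 arrays. Streak factors that were high on day 4 stood near their ESC level on day 8: Mixl1 at 4.45 ± 0.32 (ESC mean 4.66), Eomes at 5.42 ± 0.46 (6.01), Mesp1 at 4.91 ± 0.13 (5.23) and Lhx1 at 4.44 ± 0.45 (4.05). The mean over the streak list was 4.82 on day 8. Foxa2, at 8.65 ± 0.22, Kdr, at 10.23 ± 0.43, Hand2, at 10.80 ± 0.13, and Aplnr, at 10.83 ± 0.55, remained high. Etv2 had returned to 5.07 ± 0.35 and Cxcr4 to 4.88 ± 0.44.

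The core factors that fell did not follow 1 course after day 4. On day 8 Pou5f1 stood at 5.61 ± 0.45 and Nanog at 4.64 ± 0.34, below their day 4 means of 8.96 and 8.45, and Sox2 at 7.85 ± 0.72, above its day 4 mean of 7.19. Klf2, at 6.98 ± 0.51, and Tfcp2l1, at 8.15 ± 0.18, were above their day 4 means of 5.26 and 4.91. Socs3 stood at 7.45 ± 0.30 and Stat3 at 8.92 ± 0.30, against day 4 means of 5.65 and 7.05. On day 16 Pou5f1 stood at 7.17 ± 0.36, Nanog at 6.85 ± 0.63 and Zfp42 at 6.69 ± 0.49, above their day 8 means, and Sox2 at 9.46 ± 0.53. Tnnt2, the cardiac troponin that had not passed on day 4, stood at 8.55 ± 0.55 on day 8 and 9.64 ± 0.96 on day 12.

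**Figure D5:**
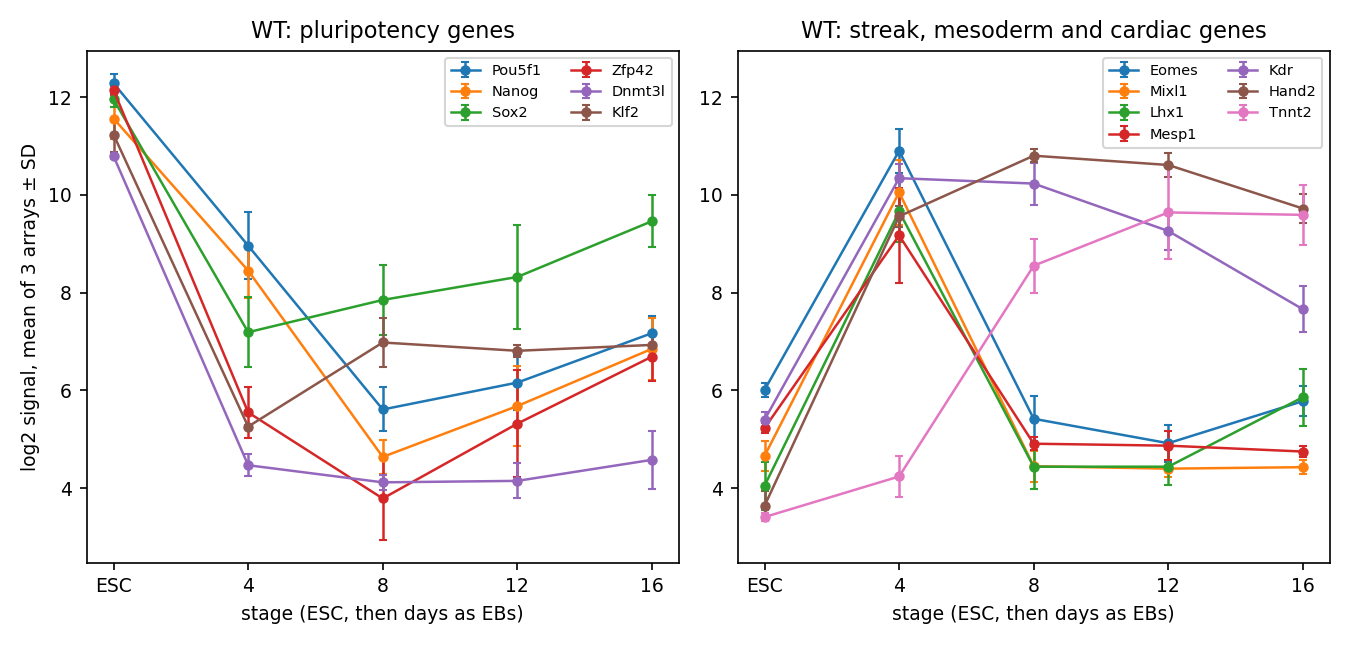
Mean log2 signal ± SD of 3 WT arrays in ESCs and on days 4, 8, 12 and 16 as EBs for pluripotency genes (left) and for streak, mesoderm and cardiac genes (right). Mixl1, Eomes, Mesp1 and Lhx1 peak on day 4 and stand near their ESC levels on day 8, while Hand2 and Kdr stay high on day 8.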

How the data were processed

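Per the labels' protocols, total RNA of ESCs and hanging-drop EBs was hybridised to Affymetrix mouse arrays. The authors deposited log2 signals of 45 arrays; RMA, Partek 6.6 and Affymetrix Expression Console are named, without role or order, per the submitters' processing notes. Such summaries share a scale across arrays, so a change in total RNA per cell is not seen. The number of arrays limits the precision.

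Of 45037 probe sets, 34945 had 1 gene symbol, 932 several and 9160 none; the annotation is the platform's and can be old. With limma 3.58.1 in R 4.3.3, 15 group means were fitted over all 45 arrays (30 residual degrees of freedom), each probe set was tested with the moderated test, and p-values were adjusted by Benjamini-Hochberg over the 34945. A gene was read from the probe set with the highest mean over the 45 arrays and passed at an adjusted p under 0.05. The code was tested on simulated data.

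The comparison, its gene lists and its tests were chosen with earlier results of these data known. Of 503 list entries, 473 were measured, for 448 genes; the others were not analysed here. Named genes are list members, Strip2, the 15 largest rises and falls with separate groups, the 10 largest each way among genes with a mean of at least 10, and the 6 largest each way in each interaction; clone numbers are not named. Genes with several probe sets numbered 175 of the 326 genes named for any comparison that passed in WT, and none had a probe set that passed in the opposite direction. Alternatives were other arrays, scalings, filters, probe set rules and priors, a replicate block, and each WT array left out. The labels number arrays within a group; deviations of same-numbered WT ESC and day 4 arrays correlated at 0.176, 0.071 and 0.158, so the numbers were not taken as pairs.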

Additional observations from a re-analysis of the deposited data

Results flagged for a closer look

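The change from ESCs to day 4 differed between WT and SCR in 704 genes by the test of the difference itself, and between WT and the KD-labelled line in 5202. Every value here is the WT change minus the change in the other line, on the log2 scale, and each passed at an adjusted p under 0.05 in limma's fit of all 45 arrays; no cause was tested.

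Against SCR, the WT change was higher in Thbs1 (2.92), Calcr (2.85), Slc39a8 (2.76), Igfbp3 (2.75), Gbp2 (2.74) and Efemp1 (2.56). It was lower in Nupr1 (-3.14), Lrrc31 (-2.52), Chac1 (-2.29), St6galnac3 (-2.26), Mt4 (-2.10) and Pnma5 (-2.05). In WT ESCs the levels of Nupr1 were 9.70, 8.27 and 9.95, those of Thbs1 5.78, 5.31 and 4.16 and those of Mt4 6.79, 7.46 and 6.63, so the arrays of that group differed among themselves.

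Of the listed genes, the pluripotency and epiblast genes Fgf5 (2.25), Pou3f1 (2.34), Sox3 (1.63), Sall2 (1.73), Pim2 (1.92) and Grhl2 (0.95) had the higher change in WT, and Jam2 (-1.41) the lower. The Wnt targets Sp5 (1.44) and Axin2 (1.01), the epithelial genes Cldn7 (1.68), Krt8 (2.09) and Krt18 (1.41), the neural genes Nes (0.97) and Gap43 (1.95), Hoxc4 (1.22), the cell cycle genes Cdk6 (0.96) and Myc (0.87) and the contractile genes Tagln (2.33) and Acta2 (1.57) were higher too. Tagln, Acta2 and Thbs1 also stand in the list of fibroblast and feeder cell markers, whose mean was 6.17 in SCR ESCs and 5.56 in WT ESCs. The mesenchymal Zeb1 (-1.98) and Postn (-1.75), the germline genes Tex11 (-1.23), Rhox5 (-2.05), Rhox6 (-1.88), Rhox9 (-1.57) and Hormad1 (-0.98), the polymerase subunit gene Pola1 (-0.63) and Vegfa (-1.61) were lower. Of these listed genes and Thbs1, 29 in all, only Hoxc4, Postn, Rhox5 and Zeb1 passed with only the 12 arrays compared, 20 with the 30 arrays of both lines, and 10 to 27 with 1 WT array left out, fewest without the third ESC array.

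Against the KD-labelled line, the WT change was higher in Aplnr (8.30), Cdh11 (7.94), Rgs5 (7.57), Asb4 (6.95), Nrp1 (6.75) and Bmper (6.61). It was lower in Mymx (-7.13), Nr0b1 (-7.08), Nupr1 (-6.38), Dpys (-6.33), Mageb16 (-6.23) and Ooep (-6.16). In the KD-labelled line Dpys rose by 0.94 between ESCs and day 4, and Nupr1 differed by 1.07 (adjusted p = 0.09).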

How the results depend on the processing

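Over the alternatives run, the count of genes that passed in WT lay between 6071, with only the 6 arrays compared, and 7581, and between 6763 and 7116 with 1 WT array left out. The count against the KD-labelled line lay between 4462 and 5423. The count against SCR, 704, was 19 with only the 12 arrays compared and 371 with the 30 arrays of both lines, and ran from 249 to 1183 with 1 WT array left out. With the replicate number as a block, which pairs nothing the labels name, the counts were 7516, 699 and 5310. The deviations of each WT ESC array from its group mean correlated best with those of the day 4 array of its own number, a hint from the data only. In the other lines, deviations of same-numbered arrays correlated at 0.06, -0.148 and -0.098 (SCR) and 0.203, -0.413 and -0.227 (KD-labelled). With only the probe sets that stand for a gene tested, the count against SCR was 908.

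Of the 317 genes named for the WT change that passed, 26 did not under some other setting and 29 did not with 1 array left out; none changed direction, and of 155 that did not pass, 34 did under some alternative. Of the 40 genes named against SCR, 34 did not pass under some other setting and 22 with 1 array left out; for the 12 with the largest interactions among them, it was 10 and 3. Of the 12 with the largest interactions against the KD-labelled line, none lost its call, and of the 16 streak factors called there, 13 passed with only the arrays compared. With the probe sets of a gene averaged, list medians were -3.60 (naive pluripotency), 0.92 (BMP), 0.60 (Wnt), 1.21 (epithelial to mesenchymal switch), 0.51 (mesoderm and mesenchyme), 0.33 (haemangioblast), 0.72 (endoderm) and 0.20 (G1 cyclins). Without dim probe sets they were 0.70 (haemangioblast), 0.95 (cardiac), 0.72 (Hox), 0.65 (trophoblast) and -4.10 (germline), over fewer genes. With 1 WT array left out, medians ran from 0.80 to 1.0 (Wnt), 0.36 to 0.56 (haemangioblast), 0.028 to 0.14 (primitive blood), 0.48 to 0.64 (cardiac), 0.67 to 1.03 (endoderm), 0.13 to 0.27 (trophoblast), -0.68 to -0.43 (DNA methylation), 0.049 to 0.59 (primed epiblast), 0.073 to 0.30 (Hox), 0.053 to 0.31 (Nodal) and -0.10 to 0.23 (fibroblast and feeder, where the sign changed without the third ESC array and without the first day 4 array). The causes were not tested.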
